A study of Mus musculus with 2 samples.

Results

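Type 2 conventional dendritic cells (cDC2) from the central nervous system were compared between WT and Stat4fl/flCD11cCre mice in which experimental autoimmune encephalomyelitis (EAE) had been induced. EAE models multiple sclerosis and is driven by T cells that recognise myelin. A droplet barcode counted as a cDC2-gated cell when it met 3 conditions on its UMIs, the counted RNA molecules. It held at least 1 UMI of the lectin genes Cd209a, Clec10a or Mgl2, at least 1 UMI of Flt3, Zfp366, Kmo or Dpp4, and no UMI of Xcr1, Cd3e, Ccr9 or P2ry12. The excluded genes mark type 1 conventional DCs (cDC1), T cells, plasmacytoid DCs and microglia, in that order. Barcodes entered with at least 500 genes, at least 1000 UMIs and less than 10% of UMIs from mitochondrial genes, and 629 of 25603 met the conditions. They were 315 of 13298 WT barcodes and 314 of 12305 Stat4fl/flCD11cCre barcodes. The measured UMIs of these genes chose the cells, so the levels of those genes within them are given as a description only.

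Conventional DCs grow from bone marrow precursors under the cytokine FLT3 ligand, take up antigen and present it on MHC class II to CD4 T cells. The cDC2 lineage relies on the transcription factor IRF4 and carries the surface proteins CD11b and CD172a, whereas cDC1 rely on IRF8 and BATF3 and carry XCR1. In the inflamed central nervous system, DCs show myelin antigen to T cells that have entered it, and IL-12 and IL-23 from antigen-presenting cells signal through receptors that use STAT4.

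Both groups were C57BL/6 mice given MOG peptide in complete Freund's adjuvant and pertussis toxin, and mononuclear cells were taken on day 15. In Stat4fl/flCD11cCre mice a Cre recombinase under the CD11c promoter recombines floxed Stat4, and WT mice served as controls. The CD11c promoter is also active in some macrophages and other CD11c-positive cells, and which Stat4 exons are floxed is not given in the sources used here. Cells of each genotype were pooled from a number of mice that the labels used here do not give. They were sorted as MHC class II+ and CD11c+, and made into 1 single-cell 3' RNA library per genotype. Each genotype thus has a single measurement, so differences are given without p-values, and the 95% intervals reflect only the counting of UMIs or cells. The cDC2-gated cells held 2701757 gene UMIs in WT and 3887410 in Stat4fl/flCD11cCre, with medians of 7492 (1179 to 42890) and 10191.5 (1410 to 48642) per cell. This depth gap touches every share of cells with a UMI, so many such shares are also given after each cell was thinned to 2500 UMIs. Shares and counts of cells given without a thinned value are not matched for depth. Ribosomal protein genes took 24.3% and 24.7% of these UMIs and mitochondrial genes 1.88% and 1.86%. Both libraries shared 42 kept barcodes, which include 1 WT and 2 Stat4fl/flCD11cCre cDC2-gated cells.

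The cells were first checked against genes and surface proteins that had no part in choosing them. Zbtb46, the transcription factor of conventional DCs, was at 39.6 counts per 1000000 gene UMIs (CPM) in WT and 35.5 in Stat4fl/flCD11cCre. It was at 58.4 and 56.3 in cells gated as cDC1 (Xcr1 with Clec9a, Flt3 or Cadm1), at 3.74 and 0.746 in cells gated as classical monocytes (Ly6c2 and Ccr2 with Fcgr1 or Csf1r), and at 0.982 and 1.52 in cells gated as Arg1 macrophages (Arg1 with Fcgr1 or Csf1r). The monocyte and macrophage gates leave out every cell with a UMI of Flt3, Zfp366, Kmo, Dpp4, Xcr1, Cd3e, Ccr9 or P2ry12, and the monocyte gate also cells with Arg1. Irf4 was at 24.4 and 25.7 CPM, against 2.29 and 7.82 in cDC1-gated cells. Irf8 (247 and 271 CPM) and Batf3 (40.3 and 39.4 CPM) were below the cDC1-gated cells, which had 1179 and 1124 CPM of Irf8 and 274 and 232 CPM of Batf3. Irf8 was also found in monocyte-gated cells, at 242 and 200.2 CPM. In both libraries Zbtb46 thus lay far above the monocyte and macrophage gates and Irf4 above all 3 gates, while Irf8 and Batf3 lay far below cDC1-gated cells.

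Genes of macrophages and monocytes were present at intermediate levels. Lyz2, the lysozyme of myeloid cells, was at 6552 and 7966 CPM, against 18080.0 and 21459 in monocyte-gated and 1312 and 1227 in cDC1-gated cells. The 18 macrophage or monocyte markers summed to 13179 and 14497 CPM, against 33052 and 36201 in monocyte-gated cells, some of whose defining genes are in the list, and none of the 18 was at 0 in cDC2-gated cells. The 11 microglia markers summed to 401 and 351 CPM, against 8695 and 13721 in P2ry12-gated cells (P2ry12 with no Cd3e, Flt3 or Xcr1), and P2ry12 was at 0 by the rule.

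Other genes separated the cDC2-gated cells from cDC1, monocyte and macrophage gates at once. Cd7, a surface protein better known from lymphocytes, was at 207 CPM in WT and 143 in Stat4fl/flCD11cCre, and at most 3.44 CPM in any of the other 3 gates. Klrd1, which encodes CD94, was at 238 and 237 CPM, against 72.2 and 68.9 in cDC1-gated and 7.80 and 4.85 in monocyte-gated cells. Tmem176b, a membrane protein of immature DCs, was at 324 and 317 CPM, against 36.7 and 18.8 in cDC1-gated and 119 and 127 in monocyte-gated cells. Tcf4, the transcription factor best known for plasmacytoid DCs, was at 235 and 206 CPM, against at most 96.0 in those 3 gates. The interferon-induced membrane protein gene Ifitm1 reached 3089.5 and 2809.6 CPM, against 804 and 1404 in cDC1-gated cells. These genes were picked from all genes by their ratio to the 3 gates, so their separation is a description. Some were as high or higher elsewhere. In P2ry12-gated cells Tcf4 was at 303 and 383 CPM and Tmem176b at 197 and 343. Klrd1 was at 209 and 199.8 CPM in T cell-gated cells, described below, and Cd7 at 59.1 and 68.5.

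**Figure D1:**
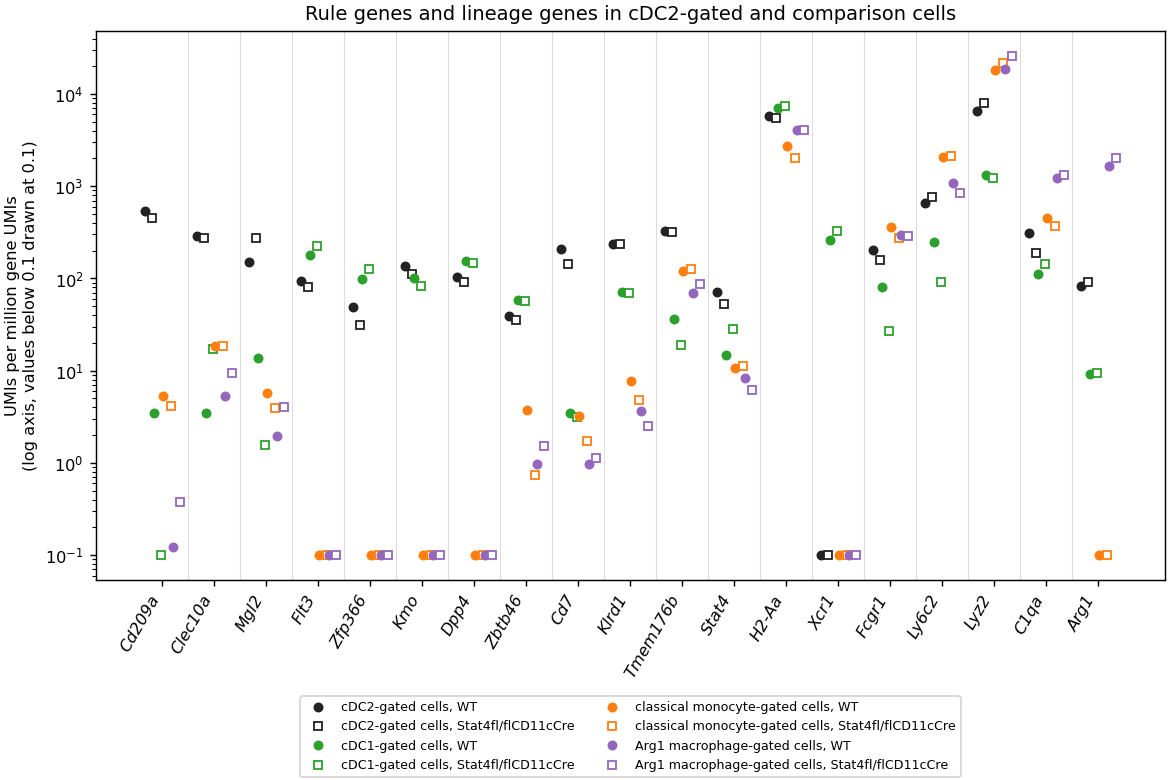
Levels of the genes that chose the cells and of lineage genes, in CPM on a log axis, for cDC2-gated (black), cDC1-gated (green), monocyte-gated (orange) and Arg1 macrophage-gated cells (purple), filled circles WT and open squares Stat4fl/flCD11cCre. Zbtb46 lies near the cDC1-gated level, Cd7 far above every other gate shown, and Lyz2 between cDC1-gated and monocyte-gated cells.

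Antibody tags read in the same cells gave the surface proteins independently of the rule. The median cDC2-gated cell had 312 CD11b tags in WT and 423.5 in Stat4fl/flCD11cCre, 10.4 and 19.3 times the median of T cell-gated cells of the same library (Cd3e and Cd3d with no P2ry12, Flt3 or Csf1r), which should lack the protein. For CD172a the medians were 148 and 256 tags, 3.80 and 2.78 times the T cell-gated medians of 39 and 92. Above the 95th percentile of T cell-gated cells lay 76.2% and 81.5% of cDC2-gated cells for CD11b, and 63.8% and 64.7% for CD172a. Monocyte-gated cells had more of both, with medians of 718 and 579 CD11b tags and 286 and 347 CD172a tags. For XCR1 and MERTK, proteins of cDC1 and of macrophages, the medians were close to the T cell-gated level, at 1.18 and 1.16 times and 1.17 and 1.13 times the T cell-gated medians. Even so, 17.8% and 19.8% of cDC2-gated cells for XCR1 and 18.7% and 21.3% for MERTK lay above the T cell-gated 95th percentile. cDC1-gated cells had 5.09 and 3.82 times the T cell-gated median for XCR1 and only 107 and 110.5 CD11b tags. The XCR1 tag did not follow Xcr1 RNA alone: it was at 4.00 and 3.08 times the T cell-gated median in Arg1 macrophage-gated and 2.36 and 1.68 times in monocyte-gated cells, whose gates allow no Xcr1 UMI. T cell-gated medians of CD172a, MERTK, XCR1 and a further tag, CD317, were all higher in the Stat4fl/flCD11cCre library, so raw tag counts of the libraries are not compared.

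**Figure D2:**
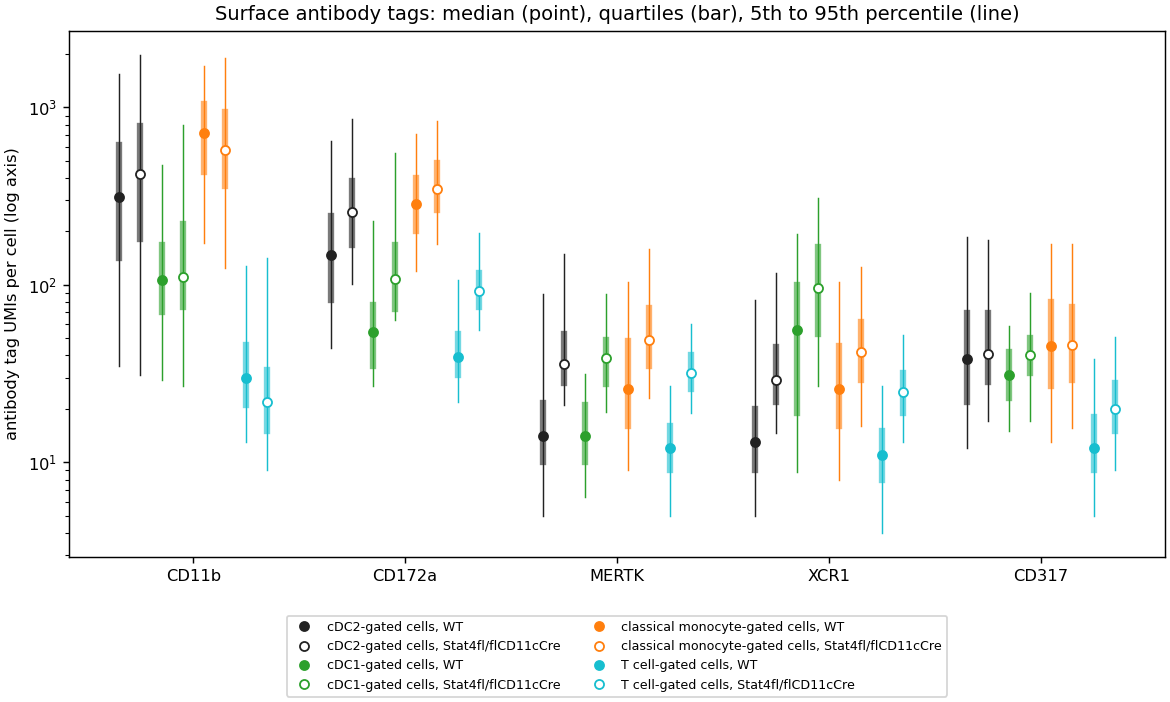
Antibody tag UMIs per cell on a log axis for 5 surface proteins, with the median as a point, the quartiles as a thick bar and the 5th to 95th percentile as a line, filled for WT and open for Stat4fl/flCD11cCre. For CD11b and CD172a the cDC2-gated cells (black) lie between cDC1-gated (green) and monocyte-gated cells (orange), and for XCR1 and MERTK their medians lie close to those of T cell-gated cells (cyan).

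The gate was not uniform. Cells that met it with exactly 1 lectin UMI and 1 UMI of the second set, 34 in WT and 32 in Stat4fl/flCD11cCre, had 15866 and 19961 CPM of Lyz2 and 2.71 and 0 CPM of Zbtb46. Cells with 2 or more UMIs of both sets, 183 and 190 of them, had 3786 and 5325 CPM of Lyz2 and 46.7 and 45.8 CPM of Zbtb46. Just outside the gate, 196 and 241 cells with a lectin UMI but none of the second set had 13665 and 18571 CPM of Lyz2 and 10.6 and 2.59 CPM of Zbtb46. The thinnest members thus resembled the cells just outside in these genes. A further 507 and 439 cells met both gene sets and were left out for an excluded gene, 343 and 282 of them with a P2ry12 UMI. Part of the gate also carried granule genes. Without thinning, 3 or more of Elane, Mpo, Ctsg, Prtn3, Ms4a3, Camp, Ngp and Ltf were found in 7 WT and 20 Stat4fl/flCD11cCre cells. These held 1861 and 434 CPM of H2-Aa, and 2 of the 7 and 12 of the 20 had no UMI of it. The cells of the libraries differed, with S100a8 at 52963 CPM in WT and 2665 in Stat4fl/flCD11cCre, and Elane at 169 and 1255.

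Cd209a, which encodes a DC-SIGN family lectin, split the gate into cells with different levels of Zbtb46 and Lyz2. It was found in 196 WT cells (62.2%) and 172 Stat4fl/flCD11cCre cells (54.8%), and in 46.9% and 40.4% after thinning. It was found in 0.659% and 1.09% of T cell-gated cells, at median depths of 5140.5 and 6097 UMIs. Cells with it had 54.4 and 43.0 CPM of Zbtb46, against 19.3 and 28.5 in those without. Lyz2 was at 3895 and 4985 CPM with Cd209a and at 10198 and 10768 without. Irf4 was also higher with Cd209a in both libraries, at 30.7 and 44.1 CPM with it and at 15.8 and 8.48 without. Itgax, H2-Aa and Cd74 were higher with Cd209a only in Stat4fl/flCD11cCre. In WT, cells with Cd209a had 47.3 CPM of Itgax, which encodes CD11c, and those without it 82.6. In Stat4fl/flCD11cCre these values were 67.95 with Cd209a and 51.9 without. H2-Aa and Cd74, genes of class II presentation, were at 5477 and 14000.0 CPM with Cd209a and at 6114 and 14783 without in WT. In Stat4fl/flCD11cCre they were at 6934 and 16361.5 CPM with it and at 4143 and 9556 without. Cells with Cd209a are therefore given separately below, a split chosen after the values were seen.

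Combinations of the lectin genes that chose the cells were counted without thinning, so the depth gap touches their shares. Cd209a with Clec10a was the most frequent combination in WT (97 cells, 30.8%, 25.7 to 36.2), and Clec10a alone in Stat4fl/flCD11cCre (89 cells, 28.3%, 23.4 to 33.7). The ratios of these shares between genotypes had intervals that span 1, at 0.776 (0.566 to 1.06) and 1.09 (0.798 to 1.49). All 3 lectin genes were found in 24 WT cells (7.62%, 4.94 to 11.1) and 41 Stat4fl/flCD11cCre cells (13.1%, 9.54 to 17.3). Mgl2, a lectin for galactose and N-acetylgalactosamine sugars, went from 149 to 277 CPM, and from 87.0 to 293 CPM in cells with Cd209a. After thinning, 11.9% of WT and 22.4% of Stat4fl/flCD11cCre cDC2-gated cells had an Mgl2 UMI, and 20.6% and 33.8% before it. In T cell-gated cells it was found in 0.203% and 0.869%. Cd209a (534 and 453 CPM) and Clec10a (287 and 272 CPM) were closer between the genotypes. Clec10a was found in 70.5% and 74.5% of cells before thinning, and in 45.0% and 36.5% after it. Mgl2 and Clec10a are neighbouring, similar genes, and how reads that fit both were counted is not given in the sources used here. Among the second set, Flt3, the receptor for FLT3 ligand, was at 93.6 and 80.3 CPM, Kmo at 137 and 113, Dpp4 at 103 and 91.8 and Zfp366 at 49.6 and 31.4.

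The series asks whether STAT4 regulates the expansion of conventional DCs, so the shares of cells were compared. In WT 2.37% of cells were cDC2-gated (2.12 to 2.64) and in Stat4fl/flCD11cCre 2.55% (2.28 to 2.85), which gives a ratio of 1.08 (0.918 to 1.26). The P2ry12 gate held 39.0% of cells in WT and 54.1% in Stat4fl/flCD11cCre. Of the 7229 and 5121 cells without a P2ry12 UMI, cDC2-gated cells were 4.36% (3.90 to 4.85) and 6.13% (5.49 to 6.82), a ratio of 1.41 (1.2 to 1.65). The shares were therefore close over all cells and higher in Stat4fl/flCD11cCre over cells without P2ry12. With the rule applied to thinned cells these ratios were 1.03 (0.830 to 1.27) and 1.41 (1.14 to 1.75). cDC1-gated cells were fewer, 77 (0.579%) and 42 (0.341%), a ratio of 0.590 (0.395 to 0.869). Over cells without a P2ry12 UMI that ratio was 0.770 (0.516 to 1.14), an interval that spans 1, and the ratio for monocyte-gated cells was 1.26 (1.13 to 1.39). The T cell gate held 14.8% and 7.49% of cells, so the shares of other cells moved as well. cDC2-gated cells were 80.4% (76.1 to 84.2) of the sum of both gates in WT and 88.2% (84.4 to 91.4) in Stat4fl/flCD11cCre. Both libraries were sorted for MHC class II and CD11c, so shares are of the sorted cells. Not every kept cell held class II RNA. No H2-Aa UMI was found in 1716 of 1974 WT and 847 of 921 Stat4fl/flCD11cCre T cell-gated cells. The same held for 967 of 5191 and 4365 of 6658 P2ry12-gated cells.

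Stat4 RNA, the target of the deletion, was higher in cDC2-gated cells than in the other myeloid gates of both libraries. It was at 71.4 CPM in WT (193 UMIs) and 53.0 in Stat4fl/flCD11cCre (206 UMIs), a log2 ratio of -0.43 (-0.72 to -0.14). The share of cells with a Stat4 UMI was 31.1% (26.0 to 36.5) and 31.5% (26.4 to 37.0), and 15.4% (11.6 to 19.9) and 13.8% (10.2 to 18.1) after thinning. In monocyte-gated cells Stat4 was at 10.6 and 11.3 CPM, in Arg1 macrophage-gated cells at 8.35 and 6.20, in cDC1-gated cells at 14.9 and 28.2, and in T cell-gated cells at 249 and 236. In cells with Cd209a it was at 94.1 and 80.7 CPM (log2 -0.22, -0.56 to 0.12), and in those without at 40.4 and 27.0 CPM. With the rule applied to thinned cells the log2 ratio of Stat4 was 0.35 (-0.33 to 1.03) in 178 WT and 176 Stat4fl/flCD11cCre cells, so its direction was not the same under every choice of cells. Reads lie near the 3' end and the floxed exons are not given, so these values do not measure the deletion.

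Receptors upstream of STAT4 had few UMIs in the gate. Il23r, the IL-23 receptor chain, had no UMI in the 315 WT cells (0 of 315, for an upper limit of 0.952% on cells with a UMI, not on cells that express the gene) and was found in 3 of 314 in Stat4fl/flCD11cCre. It was found in 9.02% and 15.5% of T cell-gated cells. Il12rb1, the chain shared by both receptors, was found in 1 and 3 cDC2-gated cells, and in 9.37% and 10.6% of T cell-gated cells. Il12rb2, the IL-12 receptor chain, had 40 and 32 UMIs (14.8 and 8.23 CPM, log2 -0.85, -1.57 to -0.14) in 8.89% (5.99 to 12.6) and 7.64% (4.96 to 11.2) of the cells, and in 2.57% and 1.60% after thinning. Of the cytokines, all 11 WT UMIs of Il12b lay in 1 cell and Stat4fl/flCD11cCre had 0, Il23a had 10 and 2 UMIs and Il12a had 4 and 18. In the list of IL-12, IL-23 and STAT signalling genes, 1 of 18 measured genes was higher by 1.5-fold or more and 3 were lower (median log2 ratio -0.22). A gene counts as measured with 50 or more UMIs over both libraries, and as higher or lower where its CPM differs by 1.5-fold or more. The inhibitor Socs1 (56.3 and 26.8 CPM), Stat2 (91.4 and 57.9) and Il12rb2 were lower, and Il6st, the shared chain of IL-6 family receptors, was higher (25.5 and 45.0).

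Across all 8265 measured genes, 652 (7.89%) were higher and 327 (3.96%) were lower in Stat4fl/flCD11cCre cDC2-gated cells, with a median log2 ratio of 0.07. The gene lists below are read against those shares. Genes of the interferon response were lower as a group. Of 24 measured genes of the interferon-gamma response, 0 were higher and 11 were lower, and all 24 had a negative log2 ratio, with a median of -0.50. Of 22 measured genes of the type I interferon response, 0 were higher and 16 were lower, all 22 were negative, and the median was -0.73. These counts and medians come from 1 library per genotype and describe those libraries.

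Cxcl9, the interferon-gamma-induced chemokine that draws activated T cells, went from 536 to 111 CPM (log2 -2.28, -2.43 to -2.12). It was found in 25.1% of WT and 8.92% of Stat4fl/flCD11cCre cells, and in 19.6% and 6.09% after thinning. T cell-gated cells had it in 3.19% and 1.52%, and in 1.49% and 0.662% after thinning. In Stat4fl/flCD11cCre 3 cells held 50% of the Cxcl9 UMIs, against 19.9% in WT. Cxcl10, a second ligand of the same receptor, went from 644 to 239 CPM (log2 -1.43, -1.55 to -1.31). Gbp5, a GTPase that attacks membranes around microbes, went from 120.3 to 62.3 CPM (log2 -0.95, -1.2 to -0.71), and Igtp, a related GTPase, from 83.7 to 42.2. Irf1, an early transcription factor of the response, went from 220.2 to 168 CPM. Antigen-processing genes of the list were closer, with Psmb8, Psmb9, Tap1 and Tap2 between -0.29 and -0.09 on the log2 scale. The list thus held large differences in chemokines and GTPases and small ones in the peptide-loading genes.

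Among type I genes, Isg15, a ubiquitin-like modifier, went from 376 to 204 CPM (log2 -0.89, -1.02 to -0.75). Ifit2, which binds foreign RNA, went from 71.1 to 19.6 CPM (log2 -1.86, -2.27 to -1.47) and Rsad2, the antiviral enzyme viperin, from 65.5 to 23.7 (log2 -1.47, -1.85 to -1.10). Irf7, which amplifies type I interferon, went from 171 to 99.8 CPM. Bst2 was the list's member nearest to no difference, at 668 and 559 CPM. Its protein, CD317, was also read by antibody tag, with medians of 38 and 41 tags, 3.17 and 2.05 times the T cell-gated medians of 12 and 20. T cell-gated cells held Bst2 RNA as well, at 218 and 252 CPM. The tag ratios therefore do not compare the protein between libraries.

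The same lists were set beside other cells of each library. In cells with Cd209a the median was -0.32 for the interferon-gamma list (7 of 23 lower) and -0.45 for the type I list (7 of 21 lower), where 4.26% of all measured genes were lower. In cells without Cd209a the medians were -0.58 (11 of 22 lower) and -0.90 (18 of 21 lower), where 6.33% of all measured genes were lower. Cxcl9 went from 486 to 93.4 CPM with Cd209a and from 603 to 127 without. In other gates the interferon-gamma list had a median of -0.76 in monocyte-gated, -0.37 in Arg1 macrophage-gated, -0.39 in cDC1-gated and -1.05 in P2ry12-gated cells. It was 0.09 in T cell-gated cells. The type I list had medians of -0.42, -0.19, -0.36 and -0.91 in those myeloid gates, in the same order, and of -0.21 in T cell-gated cells (16 of 21 negative). The interferon-gamma median was therefore negative in the cDC2 gate and in the 4 other myeloid gates, and whether its size differs between gates was not tested. In cDC2-gated cells with 3 or more granule genes the interferon-gamma median was 0.51 over 7 measured genes. In cells with Mgl2 the list medians were small, at -0.15 for the interferon-gamma and -0.29 for the type I list, each over 21 measured genes. Isg15 was at -0.03 and Rsad2 at -0.06 there, but single genes differed more. Cxcl9 in those cells went from 253 CPM in WT to 106 in Stat4fl/flCD11cCre. Cxcl10 in those cells was at 150 CPM in WT and 243 in Stat4fl/flCD11cCre (log2 0.69, 0.36 to 1.04). With a gate of 2 or more lectin UMIs and a UMI of Flt3 or Zfp366, the type I median was -0.39, and the interferon-gamma median stayed between -0.76 and -0.32 under every alternative tried.

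The promoters of 3 of these genes are shown because they carry sequence motifs through which interferon signals are known to act. Each is the 250 bases before the RefSeq transcription start (GRCm38.p6), 5' to 3' on the gene's strand. Capitals mark matches on either strand to an ISRE-like motif (TTTCNNTTTC or its reverse complement GAAANNGAAA) or to a GAS motif (TTCNNNGAA), which may overlap. The Isg15 stretch is chr4:156200819-156201068 (minus strand), that of Gbp5 is chr3:142496684-142496933 (plus strand) and that of Cxcl10 is chr5:92348890-92349139 (minus strand).
Isg15: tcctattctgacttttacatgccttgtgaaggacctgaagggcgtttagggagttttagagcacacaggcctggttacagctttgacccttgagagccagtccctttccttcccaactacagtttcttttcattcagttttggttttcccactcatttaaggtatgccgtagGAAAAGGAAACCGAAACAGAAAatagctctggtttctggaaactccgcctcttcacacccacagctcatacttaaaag
Gbp5: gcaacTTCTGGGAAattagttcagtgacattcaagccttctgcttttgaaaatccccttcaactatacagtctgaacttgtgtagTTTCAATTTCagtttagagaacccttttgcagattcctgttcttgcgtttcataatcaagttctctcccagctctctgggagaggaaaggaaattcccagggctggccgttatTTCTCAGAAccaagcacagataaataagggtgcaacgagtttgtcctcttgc
Cxcl10: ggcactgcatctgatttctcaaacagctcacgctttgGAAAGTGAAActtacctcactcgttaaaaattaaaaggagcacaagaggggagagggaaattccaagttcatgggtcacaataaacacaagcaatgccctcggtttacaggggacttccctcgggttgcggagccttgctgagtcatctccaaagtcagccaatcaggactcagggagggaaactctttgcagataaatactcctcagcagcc
Isg15 has 3 overlapping ISRE-like matches, Gbp5 has 1 ISRE-like and 2 GAS matches, and Cxcl10 has 1 ISRE-like match. Cxcl9 had no match of either kind in the same window. Among 27025 genes with a promoter sequence, taking the first listed start of each, 3.04% had an ISRE-like and 7.18% a GAS match. For the interferon-gamma list the counts were 12 and 8 of the 19 measured members with a sequence (63.2% and 42.1%), and for the type I list 9 and 4 of 17 (52.9% and 23.5%). For the MHC class II list they were 1 and 1 of 11. A match describes the letters in the window and is not evidence of binding.

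**Figure D3:**
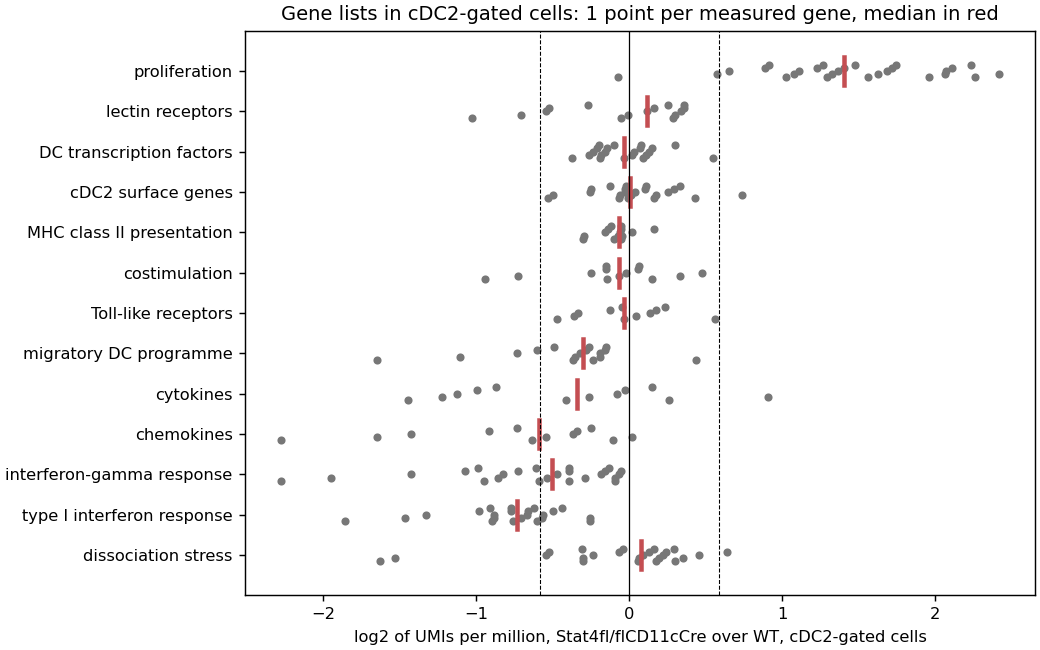
Log2 ratio of CPM, Stat4fl/flCD11cCre over WT, in cDC2-gated cells, with 1 point per measured gene, the list's median as a red bar and dashed lines at 1.5-fold. The interferon-gamma and type I interferon lists lie wholly below 0 with medians of -0.50 and -0.73, MHC class II genes and DC transcription factors lie close to 0, and proliferation genes lie above it with a median of 1.40.

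Chemokines as a group followed the same direction. Of 12 measured chemokine genes, 0 were higher and 6 lower (median log2 ratio -0.59), with Cxcl9 and Cxcl10 also members of the interferon-gamma list. Ccl5, a chemokine for T cells and monocytes, went from 416 to 132 CPM (log2 -1.65, -1.80 to -1.50), and from 187 to 100.3 in cells with Cd209a. Cxcl2, a neutrophil attractant, went from 488 to 258 CPM (log2 -0.92, -1.04 to -0.80). Ccl17, the CCR4 ligand typical of DCs, was closer at 194 and 149.7 CPM, and Ccl6 and Ccl9 had log2 ratios of -0.11 and 0.02. In cells with Cd209a, 5 of the 12 were lower, 1 was higher, and the median was -0.16.

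Inflammatory cytokines did not move as one. Of 12 measured cytokine genes 5 were lower and 1 was higher (median -0.34). Tnf went from 71.8 to 36.0 CPM (log2 -1.0, -1.32 to -0.67), Il6 from 22.2 to 9.52 (log2 -1.22, -1.85 to -0.61) and Il1a from 19.6 to 7.20. Il1b, the most abundant of the list by counts, was at 1629 and 1536 CPM (log2 -0.08, -0.14 to -0.03). Tnf in cells with Cd209a was at 59.5 and 44.1 CPM, with an interval that spans 0 (log2 -0.43, -0.88 to 0.01).

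Costimulatory genes, which give T cells their second signal, had a median of -0.07, with 2 of 13 measured genes lower and 0 higher. Cd40, the receptor for T cell help, went from 85.1 to 44.3 CPM (log2 -0.94, -1.24 to -0.65), and was at 98.5 and 53.6 in cells with Cd209a. Cd274, which encodes the inhibitory ligand PD-L1 and also belongs to the interferon-gamma list, went from 129.9 to 78.5 CPM (log2 -0.73, -0.95 to -0.50). Cd80 and Cd86 had log2 ratios of -0.02 (-0.36 to 0.31) and 0.06 (-0.07 to 0.18). Of 16 measured genes of the migratory DC programme, 4 were lower and 0 higher (median -0.31), Ccl5 and Ccl22 among them. Ccl22, another CCR4 ligand, went from 27.4 to 16.5 CPM over the gate, but its log2 ratio was 0.85 (0.12 to 1.61) in cells with Cd209a. Ccr7, which guides mature DCs towards lymph nodes, had only 13 and 25 UMIs, of which 84.6% and 84.0% lay in 3 cells.

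MHC class II genes were close to equal over the whole gate but not within its subsets. Of 14 measured genes of class II presentation 0 were higher and 0 lower by 1.5-fold, with a median of -0.07. H2-Aa, a chain of the class II molecule, was at 5745 CPM in WT and 5495 in Stat4fl/flCD11cCre (log2 -0.06, -0.09 to -0.03). Cd74, its chaperone, was at 14329.9 and 12854 CPM. In cells with Cd209a, 13 of the 14 ratios were positive (median 0.25), and H2-Aa went from 5477 to 6934 CPM (log2 0.34, 0.30 to 0.38). In cells without Cd209a all 14 were negative (median -0.58, 7 lower), and H2-Aa went from 6114 to 4143 CPM (log2 -0.56, -0.61 to -0.52). Leaving out cells with granule genes, H2-Aa without Cd209a was at 6600 and 5452 CPM and the list's median was -0.29 with 1 gene lower. Class II genes thus pointed in opposite directions with and without Cd209a, and this difference was not tested.

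**Figure D4:**
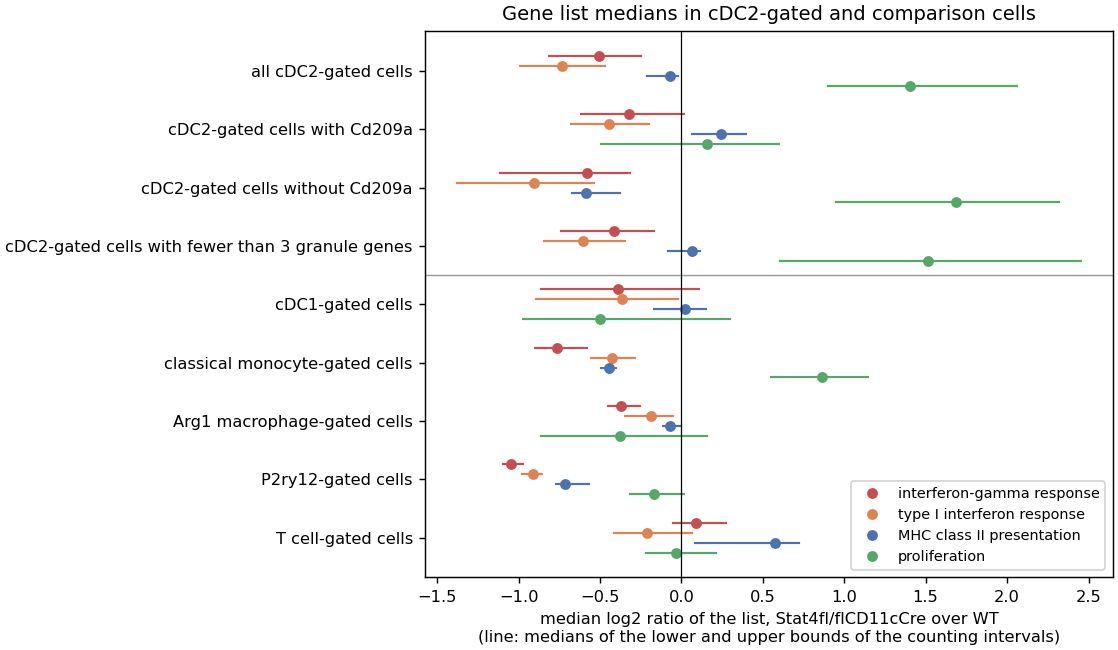
Median log2 ratio of 4 gene lists, Stat4fl/flCD11cCre over WT, in all cDC2-gated cells, in subsets of them (above the grey line) and in other gates (below it), with lines joining the medians of the genes' interval bounds. The interferon-gamma list lies below 0 in every row but T cell-gated cells, class II genes lie above 0 with Cd209a and below it without, and proliferation lies at 0.16 with Cd209a and 1.69 without.

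Genes of cell division were higher in Stat4fl/flCD11cCre, with a larger list median in cells without Cd209a. Of 27 measured proliferation genes 25 were higher and 0 lower (median 1.40), and their summed level went from 433 to 1083 CPM. Top2a, which untangles DNA before division, went from 39.2 to 131 CPM (log2 1.74, 1.44 to 2.06), with 60.4% of its WT UMIs in 3 cells, and Mki67, the standard marker of cycling cells, from 25.5 to 62.5 (log2 1.29, 0.90 to 1.70). Cells with 3 or more proliferation genes, counted as cycling, were 15 of 311 thinned WT cells (4.82%, 2.72 to 7.83) and 35 of 312 (11.2%, 7.94 to 15.3), and 16.5% and 27.4% unthinned. Among cells with Cd209a they were 6 of 192 (3.13%) and 6 of 172 (3.49%), and the list had a median of 0.16 over 7 measured genes. A gene of DNA synthesis outside the list, Dut, still had a log2 ratio of 1.67 (0.88 to 2.53) with Cd209a. Among cells without it they were 9 of 119 (7.56%, 3.52 to 13.9) and 29 of 140 (20.7%, 14.3 to 28.4), with 25 of 26 measured genes higher, where 13.1% of all measured genes were higher (4.18% with Cd209a). The difference between both subsets was not tested.

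Cells with granule genes were often cycling, 4 of 7 in WT and 14 of 20 in Stat4fl/flCD11cCre. Without them 11 of 304 (3.62%) and 21 of 292 (7.19%) cells were cycling. Of 20 measured proliferation genes 19 were still higher, where 389 of all 7833 measured genes were higher. The proliferation median was 0.52 with the gate of 2 or more lectin UMIs and a UMI of Flt3 or Zfp366. With the rule applied to thinned cells, which left 178 WT and 176 Stat4fl/flCD11cCre cells, only 1 gene of the list was still measured, at -0.25. In monocyte-gated cells 25 of 28 proliferation genes were higher (median 0.86), and in cDC1-gated cells 0 of 11 (median -0.50).

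Few genes of DC identity passed 1.5-fold between genotypes over the whole gate. Of 21 measured DC transcription factors 0 were higher and 0 lower (median -0.04). Klf4, which some cDC2 need to develop, had the largest ratio of the list, at 99.9 and 146 CPM (log2 0.55, 0.34 to 0.76), and Bcl11a was lowest (log2 -0.37, -0.56 to -0.19). The ratios of the lineage factors changed with the cells taken. Irf4 had a log2 ratio of 0.07 over the gate, 0.52 (-0.01 to 1.07) with Cd209a, -0.90 (-1.94 to 0.14) without, and 1.72 (0.53 to 3.07) with the rule applied to thinned cells. Irf8 had 0.13 over the gate and -0.55 (-0.82 to -0.28) in cells with Cd209a. Of 22 measured cDC2 surface genes 1 was higher and 0 lower (median 0.00). The higher gene was Sh2d1b1, an adaptor of SLAM receptors, at 17 and 28.3 CPM (log2 0.73, 0.22 to 1.26), and Cd7 was lowest at 207 and 143 CPM (log2 -0.53, -0.70 to -0.36). Sirpa, which encodes CD172a, was at 125 and 140.5 CPM, and Itgam, which encodes CD11b, at 161 and 173, both with intervals that span 0. Neither list's share of higher or lower genes exceeded the background of all genes.

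Of 15 measured lectin receptor genes that did not choose the cells, 0 were higher and 2 lower (median 0.11). Clec4e, the Mincle receptor for mycobacterial glycolipid, went from 97.7 to 59.7 CPM (log2 -0.71, -0.97 to -0.45). Cd209d, a neighbour of Cd209a in the same gene cluster, went from 53.7 to 26.2 CPM (log2 -1.03, -1.41 to -0.66). The similarity of the Cd209 genes leaves the split of reads between them uncertain. Mrc1, the mannose receptor, was at 71.4 and 91.6 CPM (log2 0.36, 0.10 to 0.62). Toll-like receptors (11 measured) and cholesterol synthesis genes (17 measured) had 0 genes higher and 0 lower, with medians of -0.04 and 0.11.

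Many of the widest ratios over the gate came from a few cells. By the interval bound nearest to 0, the genes that were highest in Stat4fl/flCD11cCre included Mpo, Elane, Ctsg and Prtn3, proteases and peroxidase of granules, and the lowest included Camp, Ngp, S100a8 and S100a9, products of maturing neutrophils. S100a8 went from 3084 to 519.6 CPM, and 95.5% of its WT UMIs lay in 3 cells. The 12 neutrophil markers summed to 8084 CPM in WT and 1795 in Stat4fl/flCD11cCre. Likewise, 3 cells held 99.7% of the Gzmb and 94.0% of the Ttr UMIs of Stat4fl/flCD11cCre. These values describe single cells within the gate.

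Genes spread over many cells gave a different set. A ranking made after the values were seen took 2832 genes that at least 10% of the cells of each library held and that had under 25% of their UMIs in the top 3 cells of the library where the gene was higher. Genes with few UMIs or low CPM in both libraries, ribosomal, mitochondrial, immunoglobulin and unnamed genes did not enter it. The lowest were Iigp1, Hspa1b, Ifit2, Hspa1a and Cxcl10. Iigp1, an interferon-induced GTPase, went from 182 to 47.1 CPM (log2 -1.95, -2.21 to -1.70), and Ly6i, a monocyte surface gene, from 165 to 72.5. The highest were led by Dut and Mcm6, genes of DNA synthesis, and by Plcb1, a phospholipase C. F13a1, a transglutaminase of monocytes, went from 155 to 300.2 CPM (log2 0.95, 0.79 to 1.12), and was at 111 and 127 CPM in cells with Cd209a (log2 0.19, -0.09 to 0.48). With the rule applied to thinned cells its log2 ratio was -0.57 (-1.31 to 0.16). Plcb1 went from 60.7 to 142 CPM (log2 1.23, 0.97 to 1.49) and from 18.6 to 72.2 in cells with Cd209a. In monocyte-gated cells Plcb1 was at 378 and 416 CPM, so its levels there were higher than in the cDC2-gated cells and closer between genotypes.

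**Figure D5:**
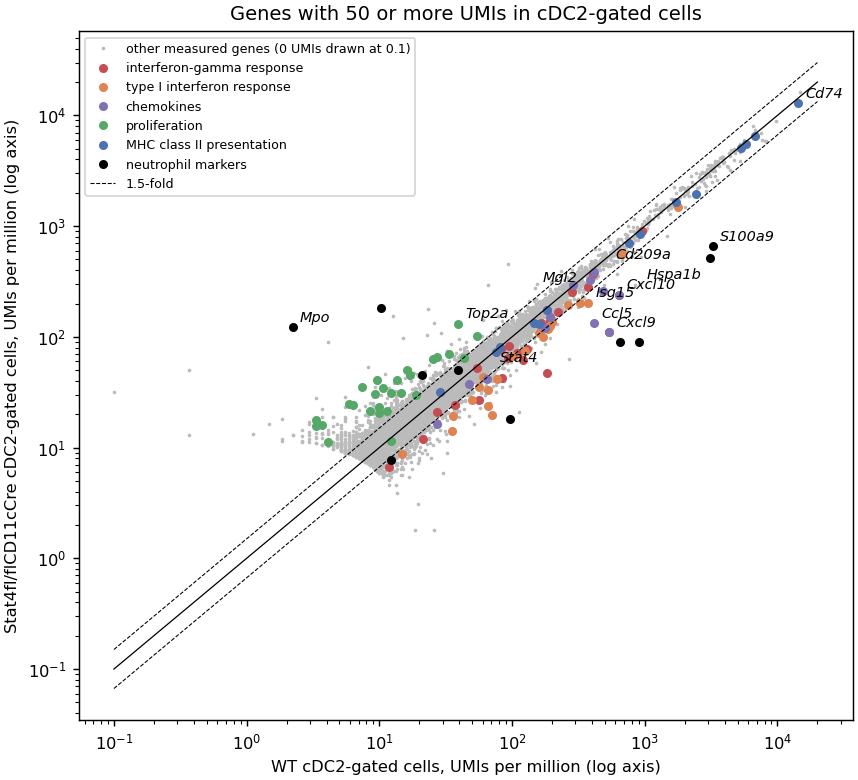
CPM of each measured gene in WT (horizontal) and Stat4fl/flCD11cCre (vertical) cDC2-gated cells on log axes, with coloured gene lists, the line of equality and dashed lines at 1.5-fold. Class II genes lie along the line, interferon genes and chemokines below it, proliferation genes above it, and neutrophil markers on both sides.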

How the data were processed

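Single-cell 3' RNA and antibody tag libraries were made from sorted cells of WT and Stat4fl/flCD11cCre mice, 1 per genotype. The deposited matrices hold whole UMI counts per barcode for 32285 genes and 5 antibody tags, with no normalization. The submitters' processing notes name Cell Ranger 7.0.0, STAR, bcl2fastq, Seurat, R 4.3.0 and the build mm10, with no parameters. The files hold 13820 WT and 12534 Stat4fl/flCD11cCre barcodes with 122975017 and 120221740 gene UMIs. The cell filter and the gate are those given in the report.

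The UMIs of all gated cells of a library were summed and divided by their total, scaled to 1000000 (CPM). Ratios carry exact conditional binomial intervals, shares exact Clopper-Pearson intervals, all at 95%. Intervals and limits for 0 (3 counts) cover counting error only. Many per-cell shares were repeated after thinning each cell to 2500 UMIs, leaving out 4 WT and 2 Stat4fl/flCD11cCre gated cells that are shallower. Scrublet scores (scanpy 1.11.5) were computed for doublets, and none was removed. The highest 10% of scores per library, which held 2 and 10 gated cells, were left out as an alternative. Python 3.11.15, NumPy 2.4.6, SciPy 1.17.1, pandas 2.3.3 and matplotlib 3.10.9 were used.

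Genes named are those that define the gate, a fixed set of STAT4, IL-12, IL-23 and DC genes, the 10 highest and 10 lowest by the interval bound nearest to 0 (100 or more UMIs and 50 or more CPM), up to 4 per list by the same rank, and the 15 that most separate the cells from 3 other gates. Others, among them the antigen-processing genes, Ly6i, Plcb1, F13a1, Dut and Mcm6, were chosen after their values were seen. The gated cells and the 27 gene lists were chosen with earlier results of these data known. Alternatives covered doublets, the cell filter, genes of other lineages, a stricter gate, thinning before gating, scaling, the weight of cells and the minimum count. Some genes, and 1 alternative that used such a gene, are not reported here. The script that computes ratios was tested on simulated data.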

Additional observations from a re-analysis of the deposited data

How the results depend on the processing

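The ratios of the shares of cDC2-gated cells stayed within their counting intervals under every alternative tried. The interferon-gamma median stayed between -0.81 and -0.25, the medians of its genes' lower and upper interval bounds. Those bounds reflect the counting of single genes and are not an interval of the list's median. The number of genes higher in Stat4fl/flCD11cCre, 652, was 345 with the stricter gate, 152 with the rule applied to thinned cells, and 124 or 1564 with a minimum of 200 or 10 UMIs. The number lower, 327, was 128 with the rule on thinned cells and 116 or 972 with those minimums. The type I interferon median was -0.39 with the stricter gate and -0.31 with the rule on thinned cells. The proliferation median was 0.52 with the stricter gate, and -0.25 with the rule on thinned cells, where 1 gene of the list was measured.

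Other settings were chosen after seeing the data. Without cells holding granule genes 389 genes were higher. In cells with Cd209a 263 genes were higher, the type I median was -0.45, the proliferation median 0.16 and the ratio of shares of cycling cells 1.12. The cause of these differences was not tested.

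Named genes past 1.5-fold changed sign as follows on the log2 scale. With the stricter gate Ctsg was at -2.76, Elane at -2.48, Ms4a3 at -5.06, Prtn3 at -0.72 and Ttr at -0.54. With the rule on thinned cells F13a1 was at -0.57 and Prtn3 at -0.31. Without the highest doublet scores Gzmb was at -1.91. Without cells holding genes of other lineages Ngp was at 0.073 and S100a9 at 0.37. Without granule cells Ngp was at 1.2, S100a8 at 1.27 and S100a9 at 2.16. In cells with Cd209a Ccl22 was at 0.85, Gzmb at -1.73 and Mki67 at -0.23. Genes under 1.5-fold crossed 0 as well. With the rule on thinned cells Stat4 was at 0.35, Tap1 at 0.52, Tmem176b at 0.57, Clec9a at 0.34 and Tcf4 at 0.38. With Cd209a Irf8 was at -0.55 and H2-Aa at 0.34. No paired analysis was possible because each genotype has 1 library.

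A single library per genotype limits every comparison between genotypes. Differences between mice, between pools and between library preparations cannot be told apart from the genotype.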

Other observations

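Hspa1b, an inducible HSP70 chaperone, was lower in the Stat4fl/flCD11cCre library in each of the 6 gates. In cDC2-gated cells it was at 918 CPM in WT and 297 in Stat4fl/flCD11cCre (log2 -1.63, -1.73 to -1.52). Its log2 ratio was -0.83 in cDC1-gated, -1.22 in monocyte-gated, -1.33 in Arg1 macrophage-gated, -1.05 in P2ry12-gated and -0.82 in T cell-gated cells. It was found in 59.2% and 33.0% of thinned cDC2-gated cells. Of 24 measured genes of the dissociation stress list, Hspa1b and Hspa1a were the 2 lower ones and 1 gene, the nuclear receptor Nr4a2, was higher (64.8 and 101 CPM), with a list median of 0.07.

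A pair of other genes also differed in one direction across gates. Plcb4, a phospholipase C, was at 8.14 CPM in WT and 53.0 in Stat4fl/flCD11cCre cDC2-gated cells (log2 2.70, 2.06 to 3.41). Its log2 ratio was 2.84 in monocyte-gated, 3.52 in Arg1 macrophage-gated, 2.34 in P2ry12-gated and 1.15 in T cell-gated cells, and 0.38 (-0.29 to 1.05) in cDC1-gated cells. Polr2l, a shared subunit of RNA polymerases, was at 178 and 86.7 CPM in cDC2-gated cells (log2 -1.04, -1.24 to -0.83), and its log2 ratio lay between -1.07 and -0.59 in the other gates. These genes were singled out after their values were seen.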
